A study of Mus musculus with 9 samples.

Results

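The subunit genes of oxidative phosphorylation were described in sorted mouse spleen monocytes. A protein-coding gene was taken when it lies on the mitochondrial chromosome, or when its symbol begins with Ndufa, Ndufb, Ndufc, Ndufs or Ndufv and a digit, with Uqcr, with Atp5 or with Cox4 to Cox8, or is Sdha, Sdhb, Sdhc, Sdhd or Cyc1, and when its mean count over the 9 libraries was at least 10. This gave 93 of 55487 features (21974 of them protein-coding), of which 13 are encoded by mitochondrial DNA and 80 by nuclear DNA. The mitochondrial genes comprise 7 of complex I, 1 of complex III, 3 of complex IV and 2 of complex V. The nuclear genes comprise 36 of complex I, 4 of complex II, 9 of complex III, 14 of complex IV and 17 of complex V. The names alone fitted 99 features. The 6 left out by the count minimum were Ndufa4l2 (mean 3 counts), Cox4i2 (2.44), Cox7b2 (0.889), Cox8b (0.667), Cox8c (0) and a second gene ID of the symbol Atp5o (0). Just inside the minimum were Cox6a2 (12.8 counts), Cox7a1 (13.9), mt-Nd4l (21.4) and mt-Atp8 (27). All 93 members passed the filter on low counts used for the tests. The name rule also takes Cox7a2l, which acts in the assembly of respiratory supercomplexes, and Atp5s, which is not part of the core ATP synthase.

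The libraries were made from untreated, sort-purified cells of C57BL/6 mice, with 3 libraries in each of 3 groups. KO Ly6Clo libraries held Ly6Clo (nonclassical) monocytes of Cebpa +37-/- mice, in which both copies of the +37 element of Cebpa are deleted, WT Ly6Clo libraries held the same subset of wild-type mice, and WT Ly6Chi libraries held Ly6Chi (classical) monocytes of wild-type mice. The product of Cebpa, C/EBP-alpha, is a transcription factor needed for granulocytes and monocytes to form. Since nothing in the labels ties each library to an animal of its own, the p-values reflect how far these libraries differ, and part of that may be technical.

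Oxidative phosphorylation passes electrons from NADH (complex I) or succinate (complex II) by way of ubiquinone, complex III and cytochrome c to complex IV, where oxygen is reduced. Complexes I, III and IV move protons across the inner mitochondrial membrane, and complex V, the ATP synthase, makes ATP from their return. Complex II has no subunit encoded by mitochondrial DNA. The other complexes are built from subunits of both genomes, of which the mitochondrial ones are cut from long transcripts that span many genes, and the nuclear ones are transcribed singly and imported as proteins.

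Total counts lay between 54583667 and 149773219 in KO Ly6Clo, 53032616 and 173703361 in WT Ly6Clo, and 48141590 and 50464920 in WT Ly6Chi, and replicate 2 of each Ly6Clo group was the deepest. Cebpa itself had 4.04, 2.89 and 2.74 CPM (counts scaled to library size) in KO Ly6Clo, against 18.2, 17.7 and 19.2 CPM in WT Ly6Clo, a log2 fold change of -2.51 (SE 0.27, adjusted p = 0.015, edgeR quasi-likelihood test). This Cebpa call was kept in 12 of 20 alternatives and lost in the rest, with adjusted p up to 0.13 and log2 fold changes between -2.714 and -2.405. Of 4 general monocyte markers, Csf1r lay at 4484 to 5556 CPM in KO Ly6Clo and 4954 to 6335 CPM in WT Ly6Clo, against 1993 to 3802 CPM in WT Ly6Chi, and Lyz2 at 7457 to 11530 and 14357 to 16990, against 37094 to 42098 CPM. Cd68 lay at 521 to 746 CPM in KO Ly6Clo, 934 to 1091 in WT Ly6Clo and 572 to 609 in WT Ly6Chi. Itgam lay at 133 to 180 CPM in KO Ly6Clo, 192 to 221 in WT Ly6Clo and 199 to 235 in WT Ly6Chi. It was lower in KO Ly6Clo than in both other groups without overlap. These 4 markers summed to 13886 to 17387, 20843 to 23125 and 41444 to 44865 CPM in the same order of groups. This sum is mostly Lyz2 and hides that Csf1r and Cd68 were higher in WT Ly6Clo than in WT Ly6Chi without overlap. The 4 Ly6Chi markers (Ly6c2, Ccr2, Fn1, F13a1) summed to 101 to 190 CPM in KO Ly6Clo and 105 to 113 CPM in WT Ly6Clo, against 6389 to 6658 CPM in WT Ly6Chi. Red cell markers (5 of 5 found) summed to 1.23 to 7518 CPM in KO Ly6Clo and 402 to 3335 CPM in WT Ly6Clo, against 132 to 223 CPM in WT Ly6Chi, and neutrophil markers (5 of 5 found) to 1.82 to 29.8, 1.03 to 4.11 and 283 to 797 CPM in the same order of groups. The 4 Ly6Clo markers (Nr4a1, Cx3cr1, Treml4, Itgal) summed to 4485 to 10067 CPM in KO Ly6Clo and 6594 to 15678 CPM in WT Ly6Clo, against 1087 to 4920 CPM in WT Ly6Chi, and in this sum replicate 1 was lowest in each group. Nr4a1 weighed most in it, with 1638 to 6262, 2458 to 11134 and 322 to 2785 CPM in the same order. Nr4a1 and Cx3cr1 each overlapped between all groups. Treml4 lay at 1170 to 1211, 1439 to 1841 and 148 to 398 CPM, with no overlap between any groups. Itgal was higher in WT Ly6Clo than in WT Ly6Chi without overlap, and KO Ly6Clo overlapped both. Markers of B cells summed to 24.2 to 75.8, 53.2 to 130 and 22.7 to 49.7 CPM in KO Ly6Clo, WT Ly6Clo and WT Ly6Chi. They were higher in WT Ly6Clo than in WT Ly6Chi without overlap. Markers of NK cells summed to 8.24 to 233, 39.2 to 176 and 11.1 to 41.6 CPM in the same order, with overlap between all groups. Over all 9 libraries, markers of T cells summed to 18.8 to 104 CPM, of platelets to 2.79 to 27.1 and of red pulp macrophages to 108 to 219 CPM. In these 3 sums all groups overlapped. The part of these other cells in the results below was not tested. WT Ly6Chi replicate 3 had Xist at 30.04 CPM and a sum of 0.0204 CPM over 4 Y-linked genes, where the other 8 libraries had at most 0.0417 and at least 191 CPM. WT Ly6Chi replicate 1 stood apart in the members, with 13 of 13 mitochondrial and 72 of 80 nuclear members above both other WT Ly6Chi libraries, and the class medians and the mitochondrial fold changes against WT Ly6Chi are also given without it.

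Part of the mitochondrial sequence exists a second time in the nuclear genome, which bears on what each count measures. Of the 13 mitochondrial genes, 7 have an unprocessed pseudogene of at least 99% identity over at least 150 bases, all in a single block of chromosome 1 (chr1:24611535-24616197, GRCm38). These are mt-Nd3 (copy Gm28438), mt-Nd4 (Gm28439), mt-Nd4l (Gm10222), mt-Co1 (Gm29216), mt-Co2 (Gm28661), mt-Co3 (Gm28437) and mt-Atp6 (Gm10925). The 3 stretches below show how alike gene and copy are. They come from the GENCODE M21 transcripts of the same build, positions are counted from 1 at the 5′ end of the mitochondrial transcript, and a capital marks the base at which gene and copy differ. In mt-Co1 (bases 1063 to 1096, chrMT:6390-6423, plus strand) the difference is A1066T, the only mismatch in 483 aligned bases, and in mt-Nd3 (bases 1 to 33, chrMT:9459-9491, plus strand) it is T3C, the only mismatch in 345. The mt-Atp6 stretch (bases 310 to 370, chrMT:8236-8296, plus strand) is part of 678 aligned bases with 0 mismatches, so a read from it carries nothing that tells gene from copy.
mt-Co1: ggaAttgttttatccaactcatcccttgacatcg
Gm29216: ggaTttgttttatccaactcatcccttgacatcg
mt-Nd3: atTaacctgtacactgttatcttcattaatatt
Gm28438: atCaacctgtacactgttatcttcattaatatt
mt-Atp6: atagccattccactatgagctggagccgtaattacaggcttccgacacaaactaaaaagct
Gm10925: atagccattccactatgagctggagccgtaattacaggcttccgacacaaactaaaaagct

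Over the 9 libraries, the counts of the gene and of its copy were 10951 and 10839 for mt-Co2, 20261 and 19350 for mt-Co3, and 16660 and 17544 for mt-Atp6. In these 3 genes the copy covers 99.6% to 99.9% of the transcript, and the counts were close to evenly divided between the genes and their copies. mt-Co1, whose copy covers 31.3% of the transcript, had 299345 counts against 18031 for Gm29216, and mt-Nd4, with 63.6% covered, had 44879 counts against 2114 for Gm28439. The levels of these 7 genes are therefore less certain than those of mt-Nd1, mt-Nd2, mt-Nd5, mt-Nd6 and mt-Cytb, which have no such copy among the transcripts searched. None was found for mt-Atp8 either. It lies between mt-Co2 and mt-Atp6, whose copies are both in the chromosome 1 block, and sequence outside annotated transcripts was not searched. Neighbouring mitochondrial genes also share bases, with 43 between mt-Atp8 and mt-Atp6, 7 between mt-Nd4l and mt-Nd4, 14 between mt-Nd5 and mt-Nd6, and 1 between mt-Atp6 and mt-Co3. mt-Nd6 is the only protein-coding gene on the minus strand, and the sources used here do not say whether reads were counted by strand. Among nuclear members, 11 of 80 have a copy elsewhere by the same limits.

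**Figure D1:**
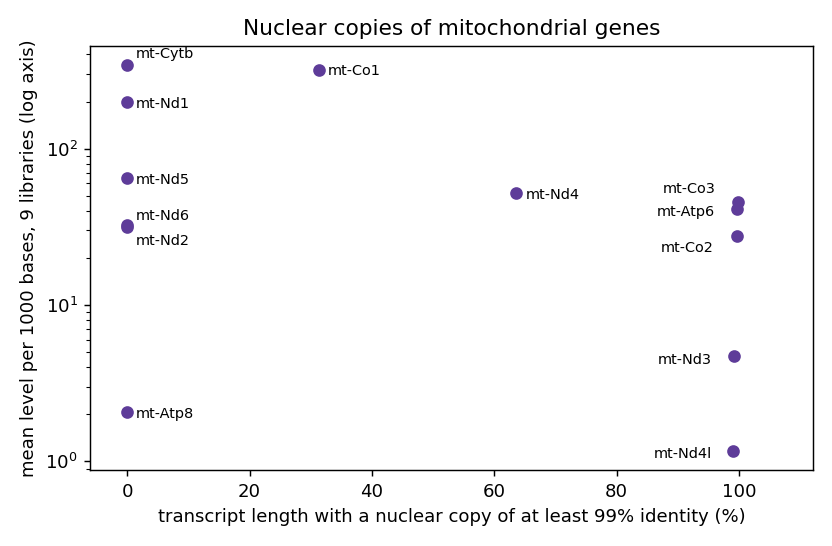
Mean level over 9 libraries in CPM per 1000 bases (log axis) of the 13 mitochondrial genes against the percent of their transcript with a nuclear copy. Copies are of at least 99% identity and were sought among annotated transcripts only. The 6 genes at 0% range from mt-Atp8 at 2.06 to mt-Cytb at 341, and the 5 genes near 100% lie between 1.17 (mt-Nd4l) and 45.3 (mt-Co3).

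Per 1000 bases of transcript, mt-Cytb, the cytochrome b of complex III, had the highest mean level over the 9 libraries of all mitochondrial members, at 341 CPM per 1000 bases (SD 138, n = 9 libraries). mt-Co1, the catalytic subunit of cytochrome c oxidase (complex IV), followed at 320 (SD 129). The SDs over 9 libraries pool the 3 groups and do not measure the spread of a difference between genes. By group, mt-Cytb and mt-Co1 averaged 357 and 317 in KO Ly6Clo, 235 and 185 in WT Ly6Clo, and 432 and 456 in WT Ly6Chi. mt-Nd1, a membrane subunit of complex I, came next at 198 (SD 69.7). mt-Nd5 (64.8, SD 29.6), mt-Nd4 (51.9, SD 19.9), mt-Co3 (45.3, SD 35.3) and mt-Atp6 (41.0, SD 28.1) formed a middle range whose library values overlapped. mt-Nd6 (32.4), mt-Nd2 (31.8) and mt-Co2 (27.7) were lower on the same scale, and mt-Nd3 (4.69), mt-Atp8 (2.06) and mt-Nd4l (1.17) were lowest. The last 3 are short genes with 884, 243 and 193 counts over all libraries, so their fold changes are the least precise. Of all counts on the 13 genes, mt-Co1 took 34.8%, mt-Cytb 28.6% and mt-Nd1 13.98%.

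Among nuclear members, levels per length spanned a similar range. Cox6a1, the widely expressed form of subunit VIa of complex IV, was highest at 271 CPM per 1000 bases (SD 40.5, n = 9 libraries). In complex V the highest was Atp5a1, the alpha subunit of the catalytic head, at 212 (SD 22.7). In complex III it was Uqcr10, a small accessory subunit, at 122.7 (SD 36.3), in complex I Ndufa2, an accessory subunit of the peripheral arm, at 120 (SD 36.9), and in complex II Sdhd, a membrane anchor, at 108 (SD 16.8). The lowest were Ndufb2 in complex I (1.46, SD 0.71), Sdhc in complex II (20.7, SD 2.97), Uqcrc2 in complex III (40.9, SD 5.03), Cox6a2 in complex IV (0.244, SD 0.27) and Atp5s in complex V (1.93, SD 0.73). The span of Ndufb2 overlaps Braf on the other strand, and its exon length of 5628 bases lowers its level on this scale.

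Of the subunits of complex IV that exist in tissue-specific forms, the broadly expressed form was the abundant one. Cox6a2, known from heart and skeletal muscle, had 0, 0.133 and 0.579 CPM in KO Ly6Clo and 0.0183, 0.225 and 0.306 CPM in WT Ly6Clo, against 0.107, 0.125 and 0 CPM in WT Ly6Chi. Its partner Cox6a1 had 177, 159 and 197 CPM in KO Ly6Clo and 176, 178 and 195 CPM in WT Ly6Clo, against 258, 196 and 176 CPM in WT Ly6Chi. Cox6a2 thus lay near the detection limit in every group, and Itgad overlaps it on the other strand. Cox7a1, the heart and muscle form of subunit VIIa, was at 0.0702 to 0.161 CPM in KO Ly6Clo and 0.00663 to 0.183 CPM in WT Ly6Clo, against 0.104 to 0.751 CPM in WT Ly6Chi, whereas its common form Cox7a2 averaged 66.6 ± 19.3, 64.4 ± 12.4 and 89.8 ± 22.6 CPM (SD, n = 3 each) in those groups. Cox7a2l averaged 71.7 ± 34.4 CPM in KO Ly6Clo and 61.4 ± 10.97 CPM in WT Ly6Clo, against 75.9 ± 6.89 CPM in WT Ly6Chi (SD, n = 3 each).

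Cox6b2, known as the testis form of subunit VIb, was the most abundant of the rarer forms. It had 1.21, 3.79 and 7.53 CPM in KO Ly6Clo and 1.58, 2.88 and 2.63 CPM in WT Ly6Clo, against 10.4, 7.78 and 8.43 CPM in WT Ly6Chi. All 3 WT Ly6Chi libraries lay above both other groups, and the KO Ly6Clo libraries spread over most of the distance. The log2 fold change of Cox6b2 was -1.91 (SE 0.61) for WT Ly6Clo against WT Ly6Chi, with an adjusted p of 0.14 in edgeR. Cox6b1, its common partner, averaged 133 ± 25.04 CPM in KO Ly6Clo and 128 ± 25.6 CPM in WT Ly6Clo, against 160 ± 29.9 CPM in WT Ly6Chi (SD, n = 3 each). Cox8a, Cox7b and Ndufa4, whose other forms fell under the count minimum, averaged 89.6 ± 5.93, 51.9 ± 15.7 and 66.2 ± 20.7 CPM in KO Ly6Clo (SD, n = 3 each). The same genes averaged 92.1 ± 20.4, 53.4 ± 12.6 and 69.9 ± 22.2 CPM in WT Ly6Clo, against 143 ± 34.1, 88.9 ± 31.5 and 104 ± 56.4 CPM in WT Ly6Chi. Ndufa4 is placed in complex I by its name and is now known as a subunit of complex IV.

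The comparison of genotypes asked what loss of the +37 element does to these genes within the Ly6Clo subset. All 13 mitochondrial members had a positive log2 fold change in KO Ly6Clo against WT Ly6Clo, with a median of 0.65 (0.41 to 1.65), and the 80 nuclear members were centred on 0.03 (-0.27 to 0.82), next to a median of 0.03 over all 18341 genes tested. No single member passed the test. edgeR called 0 of 93, where 0.0709% of all genes tested were called, DESeq2 0 of 93 (1.51% of all genes) and limma-voom 0 of 93 (0.0872% of all genes). At an unadjusted p under 0.05 edgeR gave 2 of 13 mitochondrial members, mt-Co1 and mt-Nd4, and 0 of 80 nuclear members, where 6.16% of all genes reached it.

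mt-Co1 had the smallest p of this comparison among the members. It had 456, 407 and 608 CPM in KO Ly6Clo, against 287, 235 and 338 CPM in WT Ly6Clo, so that the lowest KO library lay above the highest WT one. Its log2 fold change was 0.78 (SE 0.22, adjusted p = 0.49, edgeR). mt-Cytb had 369, 352 and 505 CPM in KO Ly6Clo, against 299, 237 and 269 CPM in WT Ly6Clo, again with no overlap (log2 fold change 0.61, SE 0.31, adjusted p = 0.89, edgeR).

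mt-Nd4, a proton-pumping subunit of complex I, had 67.6, 63.5 and 82.1 CPM in KO Ly6Clo, against 51.4, 42.9 and 49.6 CPM in WT Ly6Clo, with a log2 fold change of 0.57 (SE 0.25, adjusted p = 0.81, edgeR). mt-Nd1 had 170, 180 and 222 CPM in KO Ly6Clo and 168, 117 and 146 CPM in WT Ly6Clo, with a log2 fold change of 0.41 (SE 0.29). mt-Nd4l had 0.155, 0.224 and 0.527 CPM in KO Ly6Clo and 0.147, 0.0464 and 0.0955 CPM in WT Ly6Clo. These 5 are the mitochondrial members whose groups did not overlap, all higher in KO Ly6Clo, where 5.22% of all genes tested were higher without overlap.

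The other 8 mitochondrial genes overlapped between KO Ly6Clo and WT Ly6Clo. mt-Co2, which takes up the electrons of cytochrome c, had 22.9, 11.1 and 18.8 CPM in KO Ly6Clo and 11.7, 6.15 and 12.2 CPM in WT Ly6Clo. mt-Co3, the other core subunit of complex IV, had 38.2, 19.6 and 35.5 CPM in KO Ly6Clo and 19.5, 10.2 and 19.7 CPM in WT Ly6Clo. In both genes KO replicate 2 and WT replicate 2, the most deeply sequenced libraries, were the lowest of their group. Replicate 2 of WT Ly6Chi, the library with the fewest counts (48141590), was also lowest of its group in both (17.5 and 34.0 CPM). mt-Atp6, which forms the proton path of the ATP synthase, had 31.8, 17.7 and 24.7 CPM in KO Ly6Clo and 20.7, 13.1 and 15.7 CPM in WT Ly6Clo, and mt-Atp8, a small partner subunit, had 0.621, 0.182 and 0.316 CPM in KO Ly6Clo and 0.257, 0.146 and 0.153 CPM in WT Ly6Clo.

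The remaining complex I genes of the mitochondrial genome were as spread. mt-Nd5 had 79.6, 101 and 134 CPM in KO Ly6Clo and 83.3, 49.0 and 97.6 CPM in WT Ly6Clo. mt-Nd2 had 28.9, 28.0 and 37.2 CPM in KO Ly6Clo and 33.4, 14.03 and 22.4 CPM in WT Ly6Clo. mt-Nd6 had 15.1, 11.3 and 20.1 CPM in KO Ly6Clo and 8.82, 6.04 and 12.3 CPM in WT Ly6Clo, with KO replicate 2 below WT replicate 3. mt-Nd3 had 1.77, 0.814 and 1.14 CPM in KO Ly6Clo and 0.898, 0.106 and 1.37 CPM in WT Ly6Clo. The 6 genes without a copy among the transcripts searched had a median log2 fold change of 0.53 and the 7 with a copy one of 0.78.

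**Figure D2:**
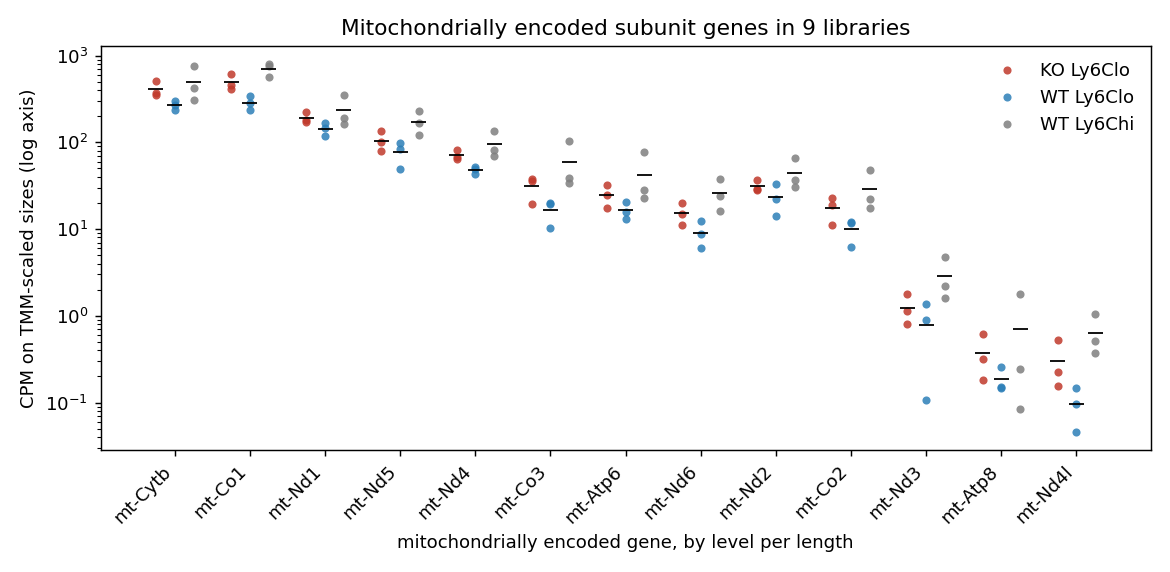
CPM on TMM-scaled library sizes (log axis) of the 13 mitochondrial genes, ordered by level per length. Each point is a library, red for KO Ly6Clo, blue for WT Ly6Clo and grey for WT Ly6Chi, and bars are group means. The mean of every gene is lowest in WT Ly6Clo and highest in WT Ly6Chi.

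Nuclear members showed no shift of this kind between KO Ly6Clo and WT Ly6Clo, with 48 positive and 32 negative fold changes. By complex the medians of the log2 fold change were 0.02 for the 36 members of complex I, -0.16 for the 4 of complex II, -0.02 for the 9 of complex III, 0.07 for the 14 of complex IV and 0.11 for the 17 of complex V. Ndufs8, an iron-sulfur subunit of complex I, had 74.5, 69.6 and 74.0 CPM in KO Ly6Clo, against 84.1, 82.9 and 80.2 CPM in WT Ly6Clo. Sdhc, a membrane anchor of complex II, had 55.9, 63.7 and 53.2 CPM in KO Ly6Clo, against 64.3, 72.3 and 64.4 CPM in WT Ly6Clo. They were the only 2 of 80 nuclear members lower without overlap, where 5.7% of all genes tested were, and neither passed the test (log2 fold changes -0.18, SE 0.16, and -0.22, SE 0.15, both adjusted p = 0.9998, edgeR).

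The wild-type subsets were compared next, WT Ly6Clo (nonclassical) against WT Ly6Chi (classical). All 13 mitochondrial members had a negative log2 fold change (median -1.37, from -2.74 to -0.71), and so had 74 of 80 nuclear members (median -0.48), next to a median of -0.004 over all genes tested. mt-Co1 fell and was the only member called by edgeR in the fit reported, 1 of 93 against 3.51% of all genes tested. With a term for the replicate number added, edgeR called 4 mitochondrial and 3 nuclear members, against 949 of 18341 genes. DESeq2 called 8 mitochondrial and 5 nuclear members, all lower, against 10.7% of all genes, and limma-voom called mt-Co1 alone, against 4.38% of all genes. At an unadjusted p under 0.05 there were 11 of 13 mitochondrial and 20 of 80 nuclear members, against 18.2% of all genes. Groups did not overlap, with WT Ly6Clo lower, in 10 of 13 mitochondrial and 27 of 80 nuclear members, against 14.7% of all genes. In these bulk libraries, less RNA per cell and fewer cells that carry it cannot be told apart.

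mt-Co1 had 287, 235 and 338 CPM in WT Ly6Clo, against 793, 571 and 752 CPM in WT Ly6Chi, and averaged 286 ± 51.5 and 705 ± 118 CPM in these groups (SD, n = 3 each). Its log2 fold change was -1.30 (SE 0.22, adjusted p = 0.016, edgeR). The call was lost when WT Ly6Clo replicate 1 (adjusted p = 0.068), WT Ly6Clo replicate 2 (0.063) or WT Ly6Chi replicate 3 (0.059) was left out, with log2 fold changes from -1.42 to -1.18 over all single omissions. It held without WT Ly6Chi replicate 1 (-1.20, adjusted p = 0.046) and with the counts of its copy Gm29216 added (adjusted p = 0.016).

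The other genes of complex IV showed the same order of groups. mt-Co3 had 19.5, 10.2 and 19.7 CPM in WT Ly6Clo, against 104, 34.0 and 38.7 CPM in WT Ly6Chi (log2 fold change -1.84, SE 0.49, adjusted p = 0.081, edgeR). mt-Co2 had 11.7, 6.15 and 12.2 CPM in WT Ly6Clo, against 48.1, 17.5 and 22.4 CPM in WT Ly6Chi (log2 fold change -1.55, SE 0.46, adjusted p = 0.12, edgeR). In both, WT Ly6Chi replicate 1 was the highest of the 9 libraries, and the groups did not overlap. Without that library the log2 fold change was -1.14 for mt-Co3 and -0.99 for mt-Co2.

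Among the complex I genes, mt-Nd4 had 51.4, 42.9 and 49.6 CPM in WT Ly6Clo, against 135, 70.2 and 82.1 CPM in WT Ly6Chi (log2 fold change -0.996, SE 0.25, adjusted p = 0.066, edgeR). mt-Nd5 had 83.3, 49.0 and 97.6 CPM in WT Ly6Clo, against 229, 121 and 169 CPM in WT Ly6Chi (-1.17, SE 0.33, adjusted p = 0.094). mt-Nd6 had 8.82, 6.04 and 12.3 CPM in WT Ly6Clo, against 37.6, 16.2 and 24.0 CPM in WT Ly6Chi (-1.52, SE 0.40, adjusted p = 0.079). These groups did not overlap, nor did those of mt-Nd3 (0.106 to 1.37 CPM in WT Ly6Clo, 1.59 to 4.81 CPM in WT Ly6Chi) and mt-Nd4l (0.0464 to 0.147 and 0.375 to 1.04 CPM). mt-Nd1 and mt-Nd2 overlapped, with 117 to 168 and 14.03 to 33.4 CPM in WT Ly6Clo, against 163 to 350 and 30.5 to 66.0 CPM in WT Ly6Chi. Without WT Ly6Chi replicate 1 the log2 fold changes of the complex I genes were all closer to 0, at -0.66 for mt-Nd4, -0.92 for mt-Nd5, -1.15 for mt-Nd6, -1.26 for mt-Nd3, -2.20 for mt-Nd4l, -0.30 for mt-Nd1 and -0.52 for mt-Nd2.

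mt-Cytb had 299, 237 and 269 CPM in WT Ly6Clo, against 751, 310 and 423 CPM in WT Ly6Chi (log2 fold change -0.88, SE 0.31, adjusted p = 0.17, edgeR), without overlap but with WT Ly6Chi replicate 2 close to the highest WT Ly6Clo library. mt-Atp6 had 20.7, 13.1 and 15.7 CPM in WT Ly6Clo, against 76.4, 22.8 and 28.4 CPM in WT Ly6Chi (-1.37, SE 0.46, adjusted p = 0.16). mt-Atp8 had 0.257, 0.146 and 0.153 CPM in WT Ly6Clo, against 1.77, 0.0834 and 0.245 CPM in WT Ly6Chi, so that its fold change rested on WT Ly6Chi replicate 1 and turned positive without it (0.17). Without that library the log2 fold change was -0.44 for mt-Cytb and -0.63 for mt-Atp6, and the median over the 13 genes was -0.92.

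The nuclear members lay in the same direction with smaller fold changes. The medians by complex were -0.49 in complex I (35 of 36 negative), -0.21 in complex II (3 of 4), -0.37 in complex III (7 of 9), -0.40 in complex IV (13 of 14) and -0.52 in complex V (16 of 17). Cox4i1, the common form of subunit IV of cytochrome c oxidase, came closest to a call, with 243, 224 and 226 CPM in WT Ly6Clo, against 435, 338 and 322 CPM in WT Ly6Chi (log2 fold change -0.66, SE 0.18, adjusted p = 0.080, edgeR). Emc8 overlaps Cox4i1 on the other strand. The 5 that DESeq2 called, named after their values were seen, were Cox4i1, Cox6b2, Ndufs8, Ndufc2 (an accessory subunit of complex I) and Atp5c1 (the gamma subunit of the ATP synthase). Atp5c1 had 203, 183 and 177 CPM in WT Ly6Clo, against 359, 278 and 255 CPM in WT Ly6Chi (log2 fold change -0.66, SE 0.18, adjusted p = 0.086, edgeR).

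A few nuclear members went the other way or stayed level. Ndufv1, the NADH-binding flavoprotein of complex I, was the only member higher in WT Ly6Clo without overlap, at 122.9, 131 and 121.9 CPM, against 115, 111.6 and 105.5 CPM in WT Ly6Chi (log2 fold change 0.18, SE 0.18). Over all genes tested, 13.6% were higher without overlap in this comparison. Ndufv1 was named after its values were seen. Sdha, the catalytic flavoprotein of complex II, had 341, 375 and 337 CPM in WT Ly6Clo, against 313, 337 and 309 CPM in WT Ly6Chi, which overlapped, and Uqcrc1, a core protein of complex III, had 409, 579 and 394 CPM in WT Ly6Clo, against 457, 458 and 404 CPM in WT Ly6Chi. Without WT Ly6Chi replicate 1 the median over the 80 nuclear members was -0.19.

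The last comparison set KO Ly6Clo against WT Ly6Chi, which differ in both genotype and subset and share a group with each of the comparisons above. All 13 mitochondrial members had a negative log2 fold change (median -0.74, from -1.21 to -0.27) and so had 74 of 80 nuclear members (median -0.39), next to 0.04 over all genes tested. edgeR called 0 of 13 mitochondrial members, against 4.52% of all genes tested, and 1 of 13 (mt-Co1) reached an unadjusted p under 0.05, against 16.9%. DESeq2 and limma-voom called 0 of 13 as well, against 10.6% and 4.95% of all genes. No mitochondrial gene was free of overlap, where 11.7% of all genes tested were lower without overlap. mt-Co1 had 456, 407 and 608 CPM in KO Ly6Clo, against 793, 571 and 752 CPM in WT Ly6Chi (log2 fold change -0.52, SE 0.22, adjusted p = 0.25, edgeR). Without WT Ly6Chi replicate 1 the median of the 13 was -0.18, mt-Nd1 (0.10), mt-Cytb (0.15) and mt-Atp8 (1.17) had a positive log2 fold change, and the other 10 lay between -0.607 (mt-Nd3) and -0.051 (mt-Atp6).

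Of the nuclear members, edgeR called 1 of 80, against 4.52% of all genes tested. This was Ndufs8, which fell to 74.5, 69.6 and 74.0 CPM in KO Ly6Clo, against 149, 121 and 102 CPM in WT Ly6Chi (log2 fold change -0.77, SE 0.16, adjusted p = 0.032). The call was lost in 8 of the 9 fits that left out a library, namely all but that without WT Ly6Chi replicate 3 (adjusted p 0.039 to 0.12, log2 fold change -0.88 to -0.62). DESeq2 called 5 nuclear members, all lower (Ndufs8, Cox4i1, Cox8a, Ndufc2 and Atp5c1), against 10.6% of all genes, and limma-voom called Ndufs8 and Atp5c1, against 4.95%. Groups did not overlap, with KO Ly6Clo lower, in 22 of 80 nuclear members, against 11.7% of all genes. An unadjusted p under 0.05 in edgeR was reached by 17 of 80, against 16.9% of all genes. Without WT Ly6Chi replicate 1 the median over the 80 was -0.15.

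**Figure D3:**
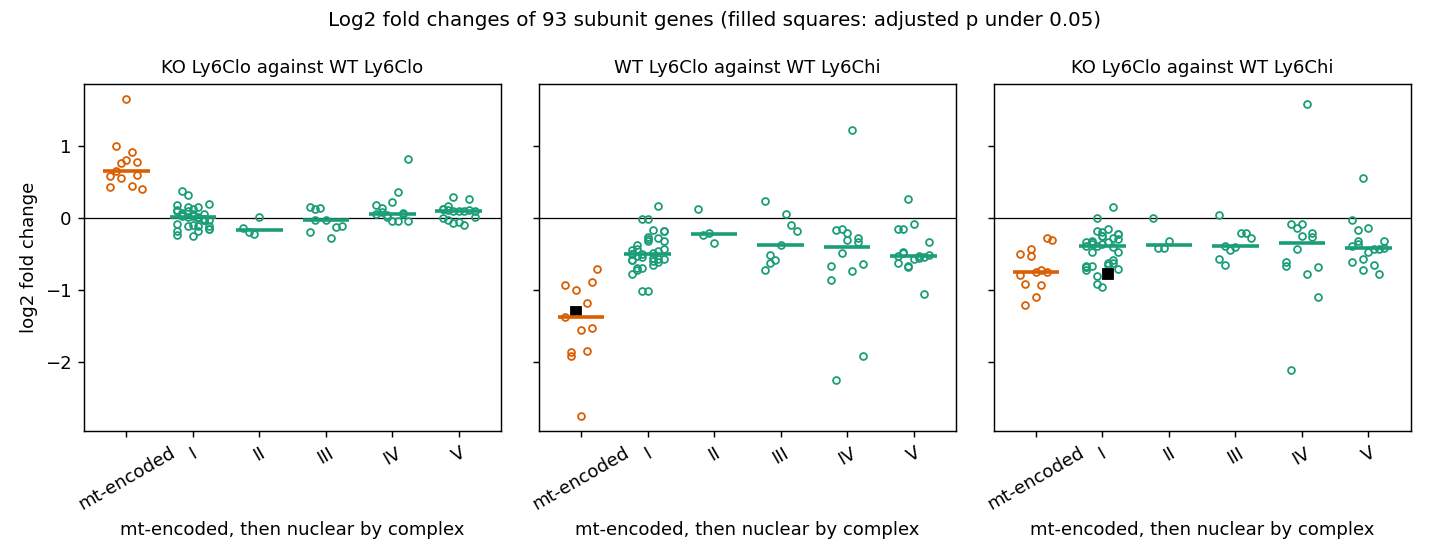
Log2 fold change (edgeR) of each member in the 3 comparisons, with the 13 mitochondrial genes in orange and the 80 nuclear genes in green by complex. Bars are medians and filled black squares are the members called, mt-Co1 in WT Ly6Clo against WT Ly6Chi and Ndufs8 in KO Ly6Clo against WT Ly6Chi. The mitochondrial genes lie above 0 in the left panel (median 0.65, against 0.03 for nuclear genes) and below 0 in the others.

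Set side by side, the genomes divided the libraries differently. The 13 mitochondrial genes took 0.137%, 0.114% and 0.176% of all counts in KO Ly6Clo, 0.0987%, 0.0635% and 0.0971% in WT Ly6Clo and 0.293%, 0.135% and 0.172% in WT Ly6Chi. The 80 nuclear genes took 0.812%, 0.633% and 0.779% in KO Ly6Clo, 0.771%, 0.605% and 0.715% in WT Ly6Clo and 1.24%, 0.840% and 0.754% in WT Ly6Chi. WT Ly6Clo was thus lowest in the mitochondrial share with no overlap, while the nuclear shares of KO Ly6Clo and WT Ly6Clo overlapped and WT Ly6Chi replicate 3 fell among them.

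The ratio of the mitochondrial to the nuclear sum, both per length, was 0.235, 0.274 and 0.324 in KO Ly6Clo, 0.186, 0.162 and 0.192 in WT Ly6Clo and 0.328, 0.219 and 0.313 in WT Ly6Chi. Means were 0.278 ± 0.045, 0.180 ± 0.016 and 0.287 ± 0.059 in those groups (SD, n = 3 each). All 3 WT Ly6Clo libraries lay below the 6 others, and KO Ly6Clo and WT Ly6Chi overlapped. Because the ratio is taken within a library, scaling between libraries does not enter it. The genes without a copy among the transcripts searched summed to 663, 673 and 918 CPM in KO Ly6Clo and 593, 424 and 547 CPM in WT Ly6Clo. In WT Ly6Chi they summed to 1435, 641 and 844 CPM, with WT Ly6Clo again lowest. No p is given for these sums, since the members were chosen with earlier results of these data known.

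**Figure D4:**
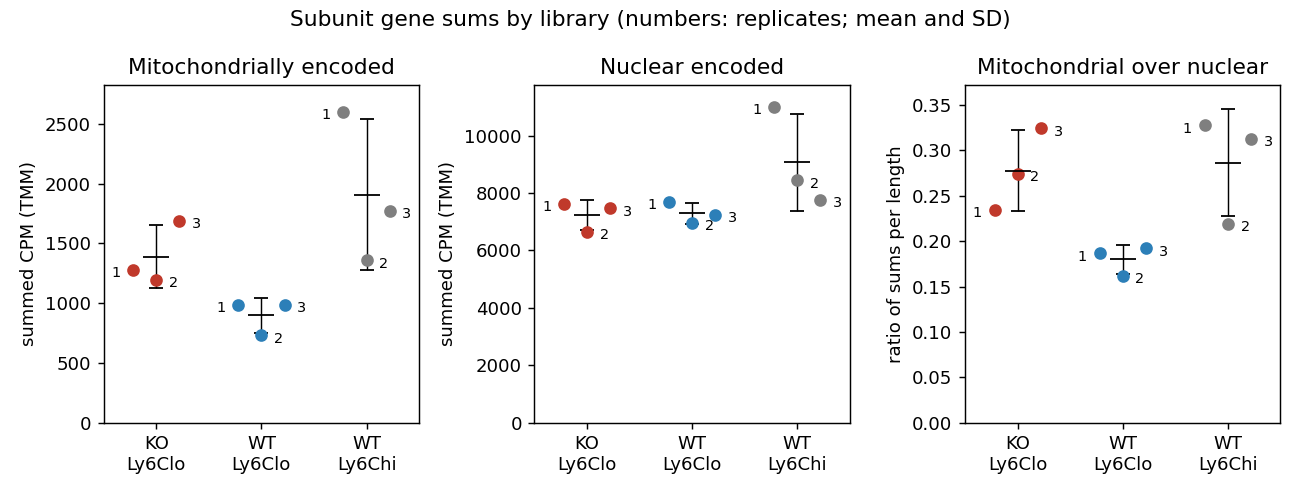
Summed CPM of the 13 mitochondrial genes (left) and the 80 nuclear genes (middle), and the ratio of their sums per length (right), for each library, with replicate numbers beside the points. Horizontal bars are means and vertical bars SD of 3 libraries, and all axes start at 0. The KO Ly6Clo ratios (0.235 to 0.324) lie above those of WT Ly6Clo (0.162 to 0.192), which lie below those of WT Ly6Chi (0.219 to 0.328).

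The mitochondrial ribosomal RNAs, which are no members and are transcribed from the same strand as most of them, summed to 553, 165 and 189 CPM in KO Ly6Clo and 168, 74.9 and 123.1 CPM in WT Ly6Clo, against 508, 195 and 224 CPM in WT Ly6Chi. Replicate 1 was highest in each group, and KO Ly6Clo and WT Ly6Clo overlapped by a small margin.

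The file names carry library numbers in 2 runs, one with replicates 1 and 2 of KO Ly6Clo and WT Ly6Clo and replicate 1 of WT Ly6Chi, the other with the remaining 4 libraries. A run here is a stretch of library numbers, and the labels do not say that it was sequenced or prepared as a batch. For members with a mean of at least 1 CPM, the median log2 ratio of KO Ly6Clo to WT Ly6Clo was 0.55 in the first run and 0.71 in the second over 11 mitochondrial genes, and 0.03 in both runs over 78 nuclear genes. For WT Ly6Clo to WT Ly6Chi it was -1.79 and -0.62 over the mitochondrial genes and -0.84 and -0.18 over the nuclear genes. For KO Ly6Clo to WT Ly6Chi it was -1.35 and -0.03 over the mitochondrial genes and -0.78 and -0.15 over the nuclear genes. The first run holds a single WT Ly6Chi library, replicate 1, so run and library cannot be told apart there. For mt-Co1 the log2 ratio of WT Ly6Clo to WT Ly6Chi was -1.60 in the first run and -0.97 in the second, and for Ndufs8 that of KO Ly6Clo to WT Ly6Chi was -1.05 and -0.59.

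Part of the spread between replicates moved with the length of the gene. The nuclear members are mostly short (median coding length 417 bases). For each library, the log2 ratio of each of 78 nuclear members to the mean of the other libraries of its group was set against coding length. Spearman's rho across these genes, which share library and depth, was, for replicates 1 to 3, -0.59, 0.74 and 0.05 in the KO Ly6Clo group, -0.42, 0.69 and -0.59 in the WT Ly6Clo group and -0.61, 0.55 and 0.49 in WT Ly6Chi. Replicate 1 of every group was thus high in the short members, with medians of 0.54, 0.36 and 0.73 for genes under the median length against 0.12, 0.12 and 0.38 for the longer ones. Replicate 2 of KO Ly6Clo and of WT Ly6Clo, the deepest libraries, was low in the short members (-0.64 and -0.52, against -0.18 and -0.09 in the longer ones). So was replicate 2 of WT Ly6Chi, the library with the fewest counts (-0.31, against -0.12). In replicate 3 the shorter and longer medians were 0.09 and 0.07 in KO Ly6Clo, 0.20 and -0.06 in WT Ly6Clo. In WT Ly6Chi replicate 3 they were -0.48 and -0.33.

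Between groups, the shorter and longer nuclear members had median log2 fold changes of 0.06 and 0.01 in KO Ly6Clo against WT Ly6Clo, -0.56 and -0.33 in WT Ly6Clo against WT Ly6Chi, and -0.46 and -0.32 in KO Ly6Clo against WT Ly6Chi. The part of this length pattern in the group differences was not tested.

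**Figure D5:**
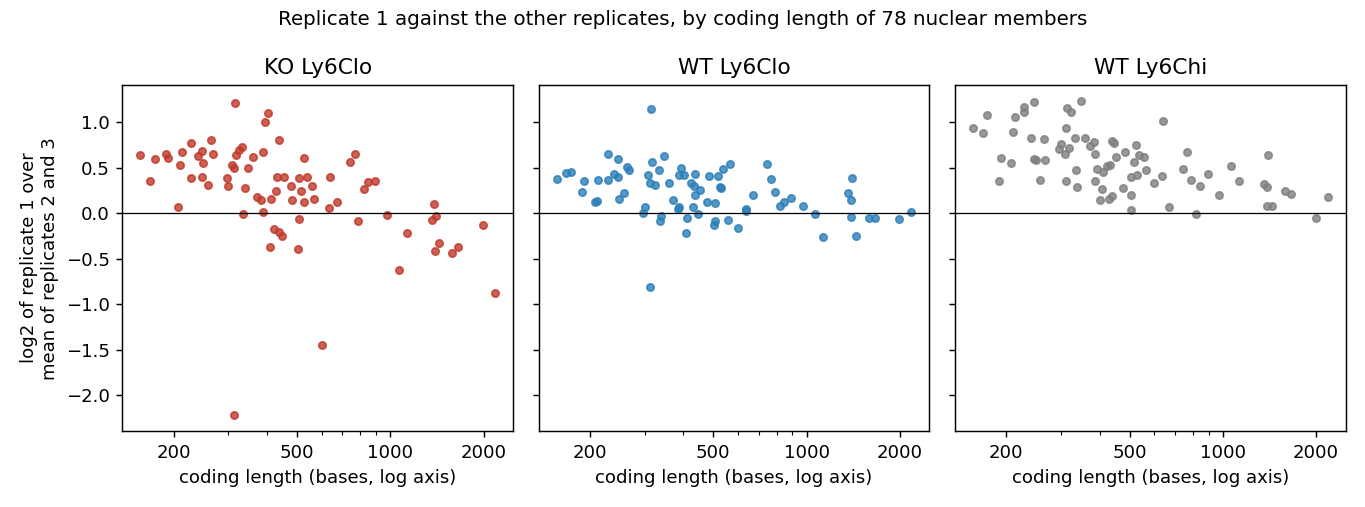
Log2 ratio of replicate 1 to the mean of replicates 2 and 3 for 78 nuclear members in KO Ly6Clo, WT Ly6Clo and WT Ly6Chi, against coding length (log axis). Points fall from left to right in all panels (Spearman's rho -0.59, -0.42 and -0.61), with short members above the line at 0.

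Genes that serve the same system were read from 5 lists. In KO Ly6Clo against WT Ly6Clo, edgeR called 0 of 44 assembly factors, 0 of 18 electron and nucleotide carriers, 0 of 22 genes of mitochondrial DNA expression, 0 of 14 biogenesis regulators and 0 of 20 genes of the citric acid cycle, and DESeq2 called 0 in each list as well, with 2, 2, 1, 0 and 0 at an unadjusted p under 0.05 in edgeR. Over all genes tested, edgeR called 0.0709% and DESeq2 1.51%, and 6.16% reached that unadjusted p. The median log2 fold changes were -0.03, -0.04, 0.05, -0.10 and -0.08 in the same order of lists. The genes of mitochondrial DNA expression transcribe, process and stabilise the mitochondrial transcripts, whose own median was 0.65. A link between the 0.05 of these genes and that median was not tested.

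In WT Ly6Clo against WT Ly6Chi, edgeR called 1 of 18 carriers lower and 1 higher, and 2 of 20 genes of the citric acid cycle list lower, against 3.51% of all genes tested. DESeq2 called 3 carriers lower and 1 higher, and 2 genes of the citric acid cycle list lower and 1 higher, against 10.7% of all genes. Of the assembly factors, genes of mitochondrial DNA expression and biogenesis regulators, edgeR called 0 of 44, 0 of 22 and 0 of 14. In these lists 4, 4 and 2 had an unadjusted p under 0.05, against 18.2% of all genes, and DESeq2 called 1, 1 and 1, against 10.7%. Slc25a4, which exchanges ADP and ATP across the inner membrane, fell to 18.8, 31.8 and 26.8 CPM in WT Ly6Clo, against 133, 98.1 and 78.2 CPM in WT Ly6Chi (log2 fold change -1.996, SE 0.34, adjusted p = 0.016). Its relative Slc25a5, more abundant here, had 627, 464 and 445 CPM in KO Ly6Clo and 649, 720 and 562 CPM in WT Ly6Clo, against 649, 766 and 690 CPM in WT Ly6Chi. Gpd2, which hands electrons of glycerol 3-phosphate to ubiquinone, rose to 71.3, 72.1 and 73.4 CPM in WT Ly6Clo, against 28.0, 42.7 and 28.0 CPM in WT Ly6Chi (1.14, SE 0.24, adjusted p = 0.035).

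Mpc1, a subunit of the carrier that brings pyruvate into mitochondria, fell to 5.13, 7.33 and 6.87 CPM in WT Ly6Clo, against 31.9, 17.6 and 17.3 CPM in WT Ly6Chi (log2 fold change -1.79, SE 0.32, adjusted p = 0.021, edgeR). Fh1, the fumarase of the citric acid cycle, fell to 38.0, 39.1 and 34.3 CPM in WT Ly6Clo, against 100.0, 61.4 and 69.7 CPM in WT Ly6Chi (-1.05, SE 0.21, adjusted p = 0.032). In all 4 genes the groups did not overlap. Each of these calls was lost when some single libraries were left out, with adjusted p over the 9 omissions of 0.012 to 0.075 for Slc25a4, 0.031 to 0.12 for Gpd2, 0.023 to 0.094 for Mpc1 and 0.040 to 0.13 for Fh1.

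The same 4 genes were called in KO Ly6Clo against WT Ly6Chi, which shares the WT Ly6Chi libraries, as 2 of 18 carriers and 2 of 20 citric acid cycle genes, against 4.52% of all genes tested. DESeq2 called 3 carriers lower and 1 higher, and 3 genes of the citric acid cycle list lower and 1 higher, against 10.6%. Slc25a4 had 19.6, 36.7 and 19.2 CPM in KO Ly6Clo (log2 fold change -2.03, SE 0.34, adjusted p = 0.011, edgeR) and Mpc1 had 7.73, 6.39 and 6.86 CPM (-1.67, SE 0.32, adjusted p = 0.022). Fh1 had 44.2, 42.9 and 35.1 CPM in KO Ly6Clo (-0.92, SE 0.21, adjusted p = 0.045) and Gpd2 had 80.7, 83.2 and 52.9 CPM (1.14, SE 0.24, adjusted p = 0.030). Single omissions gave adjusted p of 0.010 to 0.055 for Slc25a4, 0.037 to 0.092 for Mpc1, 0.062 to 0.19 for Fh1 and 0.027 to 0.11 for Gpd2. The 3 lists without a call held 3, 1 and 1 genes at an unadjusted p under 0.05, against 16.9% of all genes. DESeq2 called 2, 1 and 1 genes of these lists, against 10.6%. In those lists, the gene of highest level per length was Coa3 (assembly of complex IV), Fastk (expression of mitochondrial RNA) and Nfe2l2 (a regulator of the response to oxidants). They averaged 52.3 ± 14.9, 82.7 ± 12.2 and 360 ± 83.6 CPM in KO Ly6Clo and 53.9 ± 11.9, 79.7 ± 6.82 and 388 ± 140 CPM in WT Ly6Clo, against 52.6 ± 10.3, 71.8 ± 6.09 and 249 ± 63.4 CPM in WT Ly6Chi (SD, n = 3 each). In the citric acid cycle list it was Idh3g, a subunit of isocitrate dehydrogenase, with 218 ± 5.90, 236 ± 20.6 and 218 ± 13.7 CPM (SD, n = 3 each).

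What the nuclear members share beyond their names was read from their promoters, the 250 bases before and 50 after the start of transcription in the RefSeq table for GRCm38.p6. Windows matched for 64 of the 80 nuclear members (69 windows). The motif GCGCANGCG, bound by NRF1, a factor known for respiratory genes, was found on either strand in 30.43% of these windows and in 6.25% of all 32851 windows of the table. CCGGAAG, the core bound by ETS factors such as GABP, was found in 23.19% and 8.86%, GCCATNTTG, bound by YY1, in 14.49% and 2.51%, and TCAAGGTCA, bound by ERR receptors, in 2.9% and 0.42%. CCAAT was found in 42.03% of the member windows and 37.41% of all. A match says that these letters are present, not that a factor is bound.

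The windows of Ndufs8, the called nuclear member, of Cox6a1, the nuclear member of highest level per length, and of Uqcrc1 are shown because they carry these motifs, and were picked after the matches were seen. Capitals mark matches to the NRF1, ETS and YY1 letters on either strand, which may overlap. Ndufs8 (chr19:3912725-3913024, minus strand) holds a YY1 and an ETS match, Cox6a1 (chr5:115348909-115349208, minus strand) NRF1 and ETS matches, and Uqcrc1 (chr9:108936398-108936697, plus strand) NRF1 matches.
Ndufs8: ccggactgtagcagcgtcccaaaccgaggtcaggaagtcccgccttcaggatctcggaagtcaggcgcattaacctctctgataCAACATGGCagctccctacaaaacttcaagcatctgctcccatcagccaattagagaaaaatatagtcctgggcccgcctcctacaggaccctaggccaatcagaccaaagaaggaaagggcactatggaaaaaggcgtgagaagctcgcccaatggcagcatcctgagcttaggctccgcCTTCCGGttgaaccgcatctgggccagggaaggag
Cox6a1: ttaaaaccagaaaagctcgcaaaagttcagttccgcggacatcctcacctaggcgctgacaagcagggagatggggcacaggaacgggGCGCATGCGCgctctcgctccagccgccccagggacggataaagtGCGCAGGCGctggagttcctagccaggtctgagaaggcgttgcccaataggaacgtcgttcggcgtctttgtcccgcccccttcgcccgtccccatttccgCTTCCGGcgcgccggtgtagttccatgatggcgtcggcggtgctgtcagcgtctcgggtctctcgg
Uqcrc1: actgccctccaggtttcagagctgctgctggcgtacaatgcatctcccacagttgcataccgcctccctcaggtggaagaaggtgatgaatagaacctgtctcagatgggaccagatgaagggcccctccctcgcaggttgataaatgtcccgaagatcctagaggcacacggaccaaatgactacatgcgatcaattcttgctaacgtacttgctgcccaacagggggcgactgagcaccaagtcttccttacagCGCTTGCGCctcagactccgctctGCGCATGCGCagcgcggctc
Both Ly6Clo groups of Ndufs8 lay below WT Ly6Chi without overlap, whereas all 3 groups overlapped in Cox6a1 and in Uqcrc1.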

How the data were processed

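RNA of sorted mouse spleen monocytes was sequenced in 9 libraries, 3 in each of 3 groups, with groups and replicate numbers read from the sample titles. Each library has a table of 55487 genes. Per the file headers, the deposited values are counts (whole reads per gene, not normalized) beside CPM, FPKM and TPM, made by the authors from counts and gene lengths. Recomputed values differed by at most 5.8e-11. The deposited CPM and FPKM entered no result, and TPM only an alternative. Per the submitters' processing notes, the build was GRCm38 (mm10) and the tools included bcl2fastq, Salmon 0.8.2, STAR 2.5.1a, featureCounts 1.4.6-p5 of Subread, limma and edgeR. The sources used here do not say how reads that match several places were handled or if strand was used. Symbols came from GENCODE M21, and the coordinates of all 93 members were identical there.

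Counts were tested in R 4.3.3 with edgeR 4.0.16: filterByExpr (minimum count 10, 18341 genes kept), TMM scaling, 1 term per group over all 9 libraries, the quasi-likelihood test (glmQLFit, glmQLFTest) and Benjamini-Hochberg adjustment over all genes tested. A gene is called at an adjusted p under 0.05. Levels are CPM on TMM-scaled sizes, and levels between genes are per 1000 bases of the exon length in the tables. Copies were sought with blastn 2.17.0 among the GENCODE M21 transcripts. Depth was 48141590 to 173703361 counts per library. Libraries of the same group differed by a chi-square of at least 55.2 per gene, far above sampling noise.

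Named are all mitochondrial members, called nuclear members, the nuclear member of highest and lowest level per length in each complex, tissue isoforms, and per list up to 3 called genes or else that of the highest level. Other genes named were chosen after their values were seen. Members, lists and marker genes were chosen with earlier results of these data known. Alternatives were RLE scaling, library totals, other filters, leaving out the mitochondrial chromosome, DESeq2 1.42.0, limma-voom (limma 3.58.1), the 2 groups compared alone, a replicate block, a term for the run of library numbers, each library left out, and, added after the data were seen, copy counts summed with those of their genes.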

Additional observations from a re-analysis of the deposited data

How the results depend on the processing

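In KO Ly6Clo against WT Ly6Clo, 0 members were called under each alternative run, and the median log2 fold change of the mitochondrial members stayed positive. Over all genes tested, these alternatives called from 0 genes (the 2 groups alone) to 277 (DESeq2). In WT Ly6Clo against WT Ly6Chi, the count of mitochondrial members called was 1 in the fit reported and 2 without a filter on low counts, 8 with DESeq2 and 4 with the replicate block, and 0 to 1 when single libraries were left out. The nuclear count was 0, and 5 with DESeq2, 1 with the 2 groups alone, 3 with the replicate block and 0 to 1 without single libraries. Of all genes tested, the fit reported called 643 of 18341, DESeq2 1968 and the replicate block 949 of the same number. Without a filter 735 of 40521 were called, with the 2 groups alone 828 of 16518, and without single libraries 239 to 847. In KO Ly6Clo against WT Ly6Chi the nuclear count was 1, and 0 with library totals, without a filter or with the 2 groups alone. It was 5 with DESeq2, 2 with limma-voom, 5 with the replicate block, 2 with the term for the run of library numbers and 0 to 1 without single libraries. Of all genes tested, the fit reported called 829 of 18341. In the order above the alternatives called 890, 866 (of 40521), 553 (of 16999), 1950, 908, 977, 710 and 379 to 818. Leaving out WT Ly6Chi replicate 1 reversed mt-Atp8 in WT Ly6Clo against WT Ly6Chi (-2.426 to 0.173 over all omissions), and in KO Ly6Clo against WT Ly6Chi mt-Atp8 (-1.517 to 1.167), mt-Nd1 (-0.5 to 0.1) and mt-Cytb (-0.514 to 0.154). The Cebpa call was lost with the 2 groups alone (-2.499, adjusted p = 0.13), with the replicate block (-2.504, adjusted p = 0.056) and without KO Ly6Clo replicate 2 or 3, any WT Ly6Clo library or WT Ly6Chi replicate 3 (-2.714 to -2.41 over all omissions). The cause was not tested. With library totals, the median log2 fold change over all genes was 0.13 in KO Ly6Clo against WT Ly6Clo and -0.12 in WT Ly6Clo against WT Ly6Chi, instead of 0.03 and -0.004. Adding the copies gave mitochondrial medians of 0.61, -1.42 and -0.74 and the same calls. Same-numbered libraries of different groups had correlations of 0.005 to 0.277, 5 of 9 over 0.1, and 11 of 18 matched their own number best. Differently numbered libraries of different groups had correlations of -0.22 to 0.103. The labels do not tie the numbers to animals or days, so the fit reported takes no pairs and the replicate block is given as an alternative. Shares of protein-coding counts moved each group's mean by less than its SD, and the ratio from deposited TPM is identical by construction. Low counts limit mt-Nd4l, mt-Atp8, Cox6a2 and Cox7a1.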
